A study of Canis lupus familiaris with 6 samples.

Results

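Collagens and the proteins that bind, modify and crosslink them were examined in 3 canine mammary tumor cell lines, grown alone or with myeloid cells. Members were all non-control probes whose gene symbol in the scanner files was a collagen chain, a fibrillin, a fibulin, SPARC or SPARCL1, a tenascin, a thrombospondin, periostin, a lysyl oxidase or lysyl hydroxylase, elastin, fibronectin, perlecan or a proteoglycan (BGN, DCN, LUM, VCAN). The rule found 58 genes among the 35581 distinct gene names of the array's 43603 probes, on 122 spots. Of these genes, 27 had 1 probe and 31 had more, up to 6. Under these symbols no probe was found for COL6A2, COL18A1, FN1, LOXL1 or ELN, and probes that carry only an accession as their name were not counted as members. The members had 112 probes that passed the filter on low intensity and were tested, and 2 that did not, that of COL9A1 and 1 of the COL4A6 probes.

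The lines were P114, from an anaplastic cancer, CMT-U27, from a simple carcinoma, and CMT-U309, from a spindle cell tumor, so each tumor type is represented by 1 line. Each line was grown in monoculture, or in co-culture with myeloid-derived suppressor cells (MDSCs), which had been sorted from the blood of healthy dogs and sat in inserts above the tumor cells, for at least 72 h according to the labels, where the study's methods give a shorter time. RNA of the tumor cells was compared on 6 two-colour arrays of 60-base probes, 2 arrays a line. On the array numbered 1 the co-culture RNA was in Cy5 and the monoculture RNA in Cy3, and on the array numbered 2 the dyes were swapped. Both arrays of a line carried the same pair of RNAs, so a line counts as 1 replicate of the co-culture comparison, and no culture was repeated. The p-values therefore measure the spread between these samples only. Each line was hybridised on a slide of its own, so line and slide cannot be told apart.

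Fibrillar collagens (types I, II, III and V among others) assemble into the fibres that give tissue its strength, while type IV collagen forms the sheet of the basement membrane. Chains are hydroxylated inside the cell, for example by the lysyl hydroxylases PLOD1 to PLOD3, and crosslinked outside it by lysyl oxidases. Fibroblasts and other mesenchymal cells make most of the fibrillar matrix, and epithelial tumor cells usually make little. Small proteoglycans such as decorin and lumican bind to the fibrils, and matricellular proteins such as SPARC and the thrombospondins act on cells without building the fibres.

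Collagen chains fold into a triple helix because glycine recurs along the chain in a fixed rhythm, and this repeat could be read in the probes themselves. In 11 of the 68 collagen probes, glycine-type codons (GGN) recurred every 9 bases along the whole 60 bases, as they did in 16 of all 43603 probes (0.0367%). The probes below are shown because they cover the helix region of the chains whose levels or ratios are described further on. They are written 5′ to 3′ as deposited, with those codons in capitals, and positions are on canFam2 as the scanner files give them. The COL1A1 probes lie at chr9:29513653-29513712 and chr9:29510674-29510733 on the minus strand, and start at bases 2326 and 3366 of the transcript. The COL1A2 probes span introns on the plus strand, at chr14:22850338-22852645, chr14:22857152-22857307 and chr14:22862056-22862261, and start at bases 1842, 2309 and 3055. The COL7A1 probe, from the anchoring fibril collagen, lies at chr20:43545341-43545400 on the plus strand. The COL13A1 probe, from a transmembrane collagen, spans an intron at chr4:24185159-24186223 on the plus strand.
COL1A1 base 2326: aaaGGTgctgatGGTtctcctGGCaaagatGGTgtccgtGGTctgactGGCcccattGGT
COL1A1 base 3366: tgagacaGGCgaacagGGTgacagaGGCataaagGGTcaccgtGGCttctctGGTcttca
COL1A2 base 1842: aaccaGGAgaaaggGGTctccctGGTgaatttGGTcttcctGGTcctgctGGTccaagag
COL1A2 base 2309: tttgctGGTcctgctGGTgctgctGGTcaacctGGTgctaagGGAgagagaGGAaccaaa
COL1A2 base 3055: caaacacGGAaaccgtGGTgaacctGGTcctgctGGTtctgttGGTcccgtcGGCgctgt
COL7A1 base 7776: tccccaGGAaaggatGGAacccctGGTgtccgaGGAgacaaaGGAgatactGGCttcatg
COL13A1 base 1743: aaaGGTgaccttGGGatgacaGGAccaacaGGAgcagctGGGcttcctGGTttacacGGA

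Levels below are log2 processed signals, the mean of the Cy5 and the Cy3 channel of an RNA, after every channel was scaled to a common median. For each gene the values are those of its brightest probe unless another is named. A probe was counted as measured in a channel where the scanner software called it well above background, and each line had 4 such channels. Between 53 and 81% of all probes were well above background in a channel, and no member probe was saturated in any. Levels are compared between lines for the same probe or the same sum of probes, never between genes. In a sum the brightest probes weigh most, so it does not describe every gene of its set.

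The matrix genes were lowest in the simple carcinoma line and highest in the spindle cell line. All 4 channels measured 42 of the 58 genes in CMT-U309, 36 in P114 and 26 in CMT-U27. Taken by probe, 73.7% of the member probes were measured in all 4 channels of CMT-U309, 58.8% in P114 and 42.1% in CMT-U27, against 52.7%, 54.1% and 56.3% of all probes. Among the 43 genes measured in every channel of at least 1 line, 34 had their lowest mean level in CMT-U27, 9 in P114 and 0 in CMT-U309. Their highest mean level was in CMT-U309 for 32 genes, in P114 for 9 and in CMT-U27 for 2. The summed signal of the 58 genes was 30000 in monoculture and 35200 in co-culture in CMT-U27, against 383000 and 396000 in P114 and 653000 and 646000 in CMT-U309. In P114 and CMT-U309 COL1A2, the brightest member there, weighed most in this sum. These are bulk samples, in which fewer cells that make a transcript and less transcript per cell cannot be told apart.

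**Figure D1:**
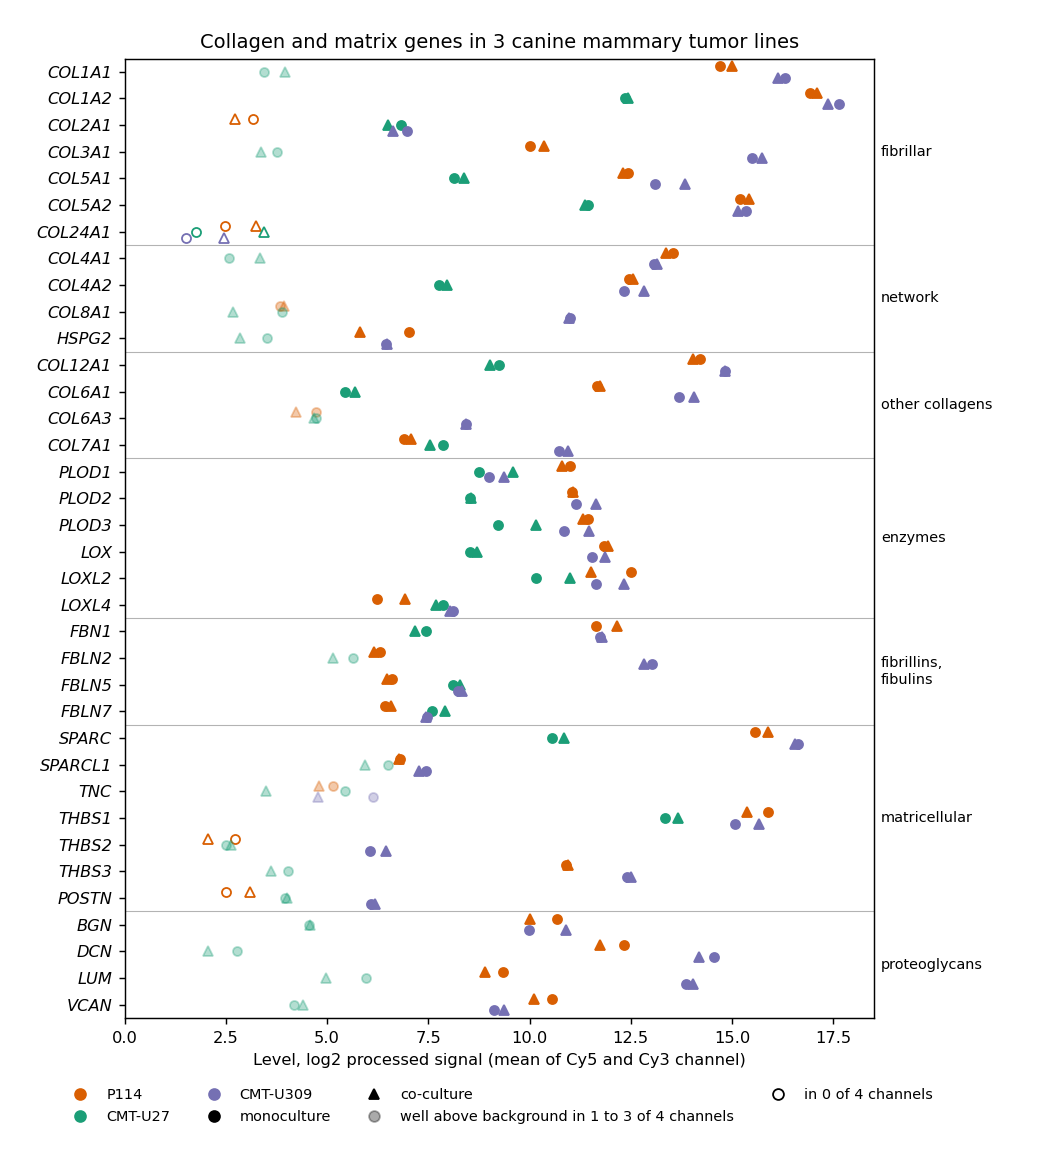
Level (log2 processed signal, mean of both dyes) of the named matrix genes at their brightest probe in the 6 RNA samples, with circles for monoculture and triangles for co-culture, filled where all 4 channels of the line were well above background, pale where 1 to 3 were and open where none was. For COL1A1 the CMT-U27 symbols sit at 3.43 and 3.96, far to the left of P114 (14.70 and 15.01) and CMT-U309 (16.30 and 16.14).

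The lines were compared over all 40706 tested probes, and a probe was called where the limma p adjusted by Benjamini-Hochberg was under 0.05 and the fold change over 2. P114 exceeded CMT-U27 at 63 of the 112 member probes (56.2%) and fell below it at 8 (7.14%), where the calls over all probes were 11.6% and 12.6%. CMT-U309 exceeded CMT-U27 at 80 member probes (71.4%) and fell below it at 2 (1.79%), against 13.3% and 15.7% of all probes. P114 was called above CMT-U309 at 3 member probes (2.68%) and below it at 46 (41.1%), against 7.69% and 6.84% of all probes. The median difference over the member probes was 1.72, 3.60 and -0.70 on the log2 scale in these 3 contrasts, where that over all probes was 0.15, -0.04 and 0.15. With another background correction (normexp with an offset of 50) the member medians were 0.48, 1.75 and -0.47, and among probes well above background in a whole line 3.41, 4.84 and -1.13. The contrasts share samples, so their counts are not independent of each other. At the brightest probe, 25 of the 57 tested genes were higher in P114 and in CMT-U309 than in CMT-U27, 16 were higher in CMT-U309 than in either other line, 4 were lower in P114 than in either other line, 3 were higher in P114 than in either, and 13 were called in no contrast. These sets overlap.

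**Figure D2:**
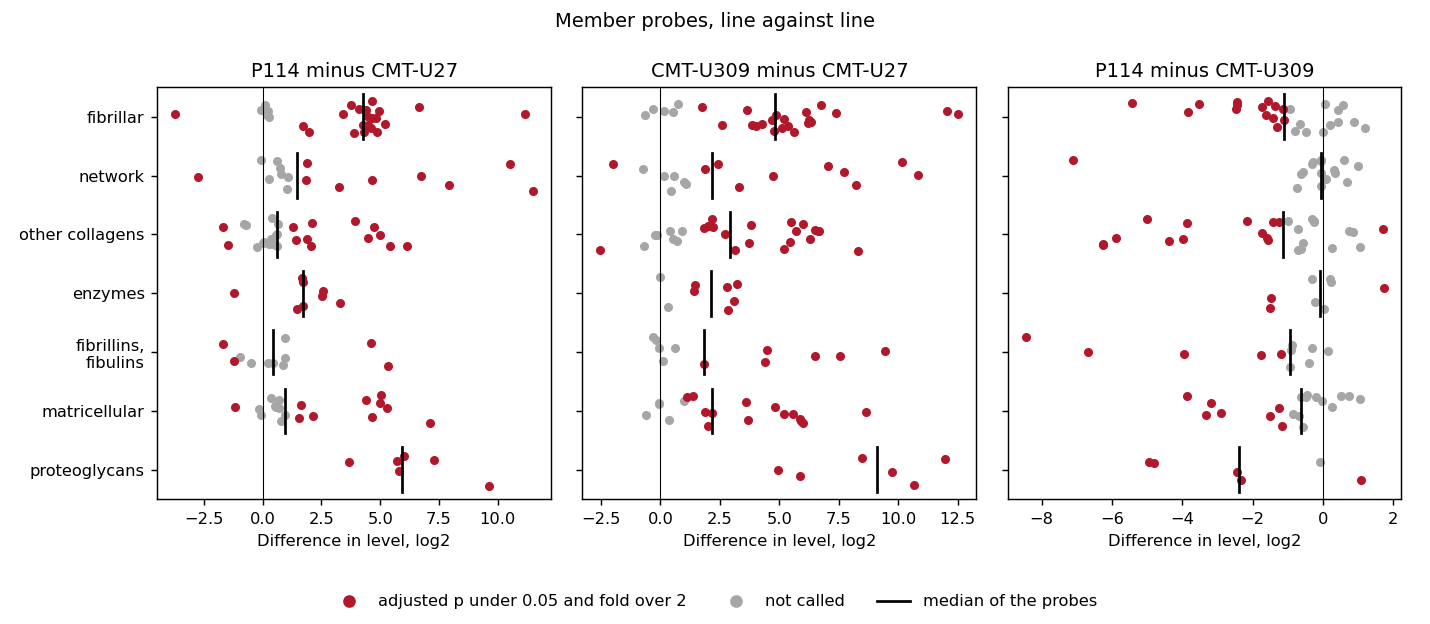
Difference in level (log2) of every tested member probe between pairs of lines, by class, with called probes in red, the others in grey and the median of the class as a bar. All 6 proteoglycan probes and 20 of the 26 fibrillar collagen probes lie on the P114 side of CMT-U27 and were called.

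Of the 26 probes of fibrillar collagens, 20 were higher in P114 than in CMT-U27 and 1 lower, 21 were higher in CMT-U309 than in CMT-U27, and 14 were lower in P114 than in CMT-U309. COL1A1, the main chain of type I collagen, had levels of 14.70 in monoculture and 15.01 in co-culture in P114, 16.30 and 16.14 in CMT-U309, and 3.43 and 3.96 in CMT-U27, where 1 of 4 channels was well above background. The 3 lines did not overlap, and at this probe CMT-U27 lay near background, so the size of its difference is uncertain. P114 minus CMT-U27 was 11.16 ± 0.17 (SE, adjusted p = 3.24e-10), CMT-U309 minus CMT-U27 12.52 ± 0.17 (adjusted p = 1.18e-10), and P114 minus CMT-U309 -1.36 ± 0.17 (adjusted p = 0.000247). The other 3 COL1A1 probes gave 3.75, 4.30 and 4.94 for P114 minus CMT-U27 and 6.22, 6.77 and 7.40 for CMT-U309 minus CMT-U27, and the middle of these, at base 2326, was measured in all 4 CMT-U27 channels (5.89 and 5.78). COL1A2, the second chain of type I collagen, was well measured in every line, at 16.94 and 17.09 in P114, 12.35 and 12.42 in CMT-U27 and 17.64 and 17.38 in CMT-U309. Its fold over CMT-U27 was 24.9 in P114 (adjusted p = 1.16e-08) and 35.0 in CMT-U309 (adjusted p = 5.11e-09). P114 minus CMT-U309 was -0.49 for COL1A2 on the log2 scale, under the fold threshold. It was -1.17 with quantile normalization or with loess and Aquantile and -1.29 with normexp, and was then called. All 6 COL1A2 probes and all 4 COL1A1 probes were called higher than CMT-U27 in both other lines.

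The largest gap between P114 and CMT-U309 among the named fibrillar chains was that of COL3A1, the type III chain that lies with type I in soft tissue. COL3A1 stood at 10.02 and 10.35 in P114, 3.75 and 3.37 in CMT-U27 (1 of 4 channels measured) and 15.50 and 15.75 in CMT-U309. CMT-U309 was 43.2-fold above P114 (adjusted p = 2.69e-08), and P114 was above CMT-U27 (adjusted p = 3.37e-09), by 6.63 on the log2 scale and by 2.90 with normexp. COL5A1 and COL5A2, the chains of type V collagen that start fibril assembly, were measured in all 12 channels. COL5A1 stood at 12.44 and 12.30 in P114, 8.14 and 8.38 in CMT-U27 and 13.10 and 13.85 in CMT-U309. For COL5A2, P114 (15.20 and 15.41) and CMT-U309 (15.34 and 15.15) overlapped, with a difference of 0.06 ± 0.15 (SE, adjusted p = 0.787), and CMT-U27 (11.45 and 11.36) lay 14.9-fold below P114. The difference between P114 and CMT-U309 depended on the normalization. It was -0.34 with quantile normalization, -0.41 with loess and Aquantile and -0.52 with normexp, all under the fold threshold. Type II collagen, the fibrillar collagen of cartilage, had probes that disagreed. COL2A1 stood at 6.83 and 6.50 in CMT-U27 and 6.97 and 6.63 in CMT-U309, and in P114 no channel was well above background. After loess and Aquantile, the bound put CMT-U27 at least 4.94-fold and CMT-U309 at least 5.67-fold above P114. Such a bound sets the bright line against the lowest signal that counted as well above background on the dim arrays. Where the probe's own signal there was higher, that was used. A bound holds for that processing only. With normexp, P114 minus CMT-U27 was -0.84 for COL2A1 on the log2 scale, under the fold threshold, and P114 minus CMT-U309 was -1.10, still called. The other COL2A1 probes were not called between P114 and CMT-U27, and the median over the probes was -0.30 on the log2 scale (adjusted p = 0.452). Both of them were higher in CMT-U309 than in CMT-U27, by 3.33- and 12.3-fold, where the brightest differed by 0.14 on the log2 scale (adjusted p = 0.679) and the median over the probes was 2.77 (adjusted p = 2.21e-05).

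Of the 9 tested genes of basement membrane and network collagens and perlecan, 3 were higher and 1 lower in P114 than in CMT-U27, and 4 were higher and 1 lower in CMT-U309 than in CMT-U27. COL4A1 stood at 13.54 and 13.38 in P114, 2.57 and 3.34 in CMT-U27 (1 of 4 channels measured) and 13.07 and 13.14 in CMT-U309. Its second probe was well above background in 0 of 4 CMT-U27 channels and was at least 668-fold higher in P114 and at least 489-fold higher in CMT-U309. COL4A2, its partner chain, stood at 12.45 and 12.56 in P114, 7.76 and 7.97 in CMT-U27 and 12.33 and 12.83 in CMT-U309, so P114 and CMT-U309 overlapped. Neither COL4A1 nor COL4A2 was called between these lines (adjusted p = 0.241 and 0.748). COL8A1, a network collagen of vessel wall and cornea, was measured in every channel of CMT-U309 alone, at 11.01 and 10.98, against 3.84 and 3.93 in P114 (1 of 4 channels) and 3.88 and 2.68 in CMT-U27 (2 of 4). HSPG2, the basement membrane proteoglycan perlecan, stood at 7.02 and 5.81 in P114, 3.51 and 2.84 in CMT-U27 (1 of 4) and 6.45 and 6.48 in CMT-U309, with differences of 3.24 ± 0.31 and 3.29 ± 0.31 from CMT-U27, which with normexp were 0.74 each, under the fold threshold. Of the chains COL4A3 to COL4A6, which make the type IV collagen of specialised basement membranes, none was measured in all 4 channels of any line.

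Among the other collagens, COL6A1 and COL6A3, which belong to the beaded filaments of type VI collagen, parted ways. COL6A1 stood at 11.67 and 11.75 in P114, 5.45 and 5.68 in CMT-U27 and 13.69 and 14.07 in CMT-U309, a 70.6-fold difference between P114 and CMT-U27 (adjusted p = 1.53e-09). The other COL6A1 probes gave 15.4-fold and, at the probe also measured in all 12 channels, 4.17-fold. COL6A3 stood at 8.44 in both samples of CMT-U309, but at 4.72 and 4.22 in P114 (1 of 4 channels) and 4.73 and 4.68 in CMT-U27 (3 of 4). All 5 COL6A3 probes were called higher in CMT-U309 than in either other line, and for 4 of them P114 had no channel well above background. Where both dim lines were below background, CMT-U309 was at least 15.9- to 28.9-fold above P114 and at least 21.4- to 39.0-fold above CMT-U27. COL7A1, the collagen of the anchoring fibrils beneath epithelia, was also highest in the spindle cell line, at 10.72 and 10.96, against 6.89 and 7.07 in P114 and 7.86 and 7.55 in CMT-U27 (CMT-U309 over P114 14.5-fold, adjusted p = 2.06e-07). Its helix probe shown above ran the same way, 20.8-fold over P114 and 6.53-fold over CMT-U27. COL12A1, which coats type I fibrils, stood at 14.20 and 14.05 in P114, 9.25 and 9.03 in CMT-U27 and 14.84 in both samples of CMT-U309. COL13A1, the transmembrane collagen whose helix probe is shown above, stood at 4.93 and 4.75 in P114 (2 of 4 channels), 4.47 and 4.09 in CMT-U27 (3 of 4) and 6.38 and 6.15 in CMT-U309, which was 2.69-fold above P114 and 3.98-fold above CMT-U27 (adjusted p = 0.00217 and 0.000122). COL19A1, named after its values were seen, was bright and differed by less than the 2-fold threshold between every pair of lines (12.36, 11.90 and 12.61 as mean levels in P114, CMT-U27 and CMT-U309).

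The enzymes that modify and crosslink collagen were measured in every line. LOX, the lysyl oxidase that starts crosslinking, stood at 11.85 and 11.93 in P114, 8.52 and 8.71 in CMT-U27 and 11.54 and 11.87 in CMT-U309, a fold of 9.71 and 8.54 over CMT-U27 (adjusted p = 4.69e-08 and 6.44e-08). PLOD2, which hydroxylates lysines at the chain ends, was 5.80-fold higher in P114 and 7.25-fold higher in CMT-U309 than in CMT-U27, and its 2 probes gave the same calls. PLOD3 was 3.19- and 2.74-fold higher. PLOD1 was higher in P114 (11.01 and 10.79) than in both CMT-U27 (8.76 and 9.60) and CMT-U309 (8.99 and 9.38), by 3.29-fold in each contrast, and the latter lines did not differ by the test (adjusted p = 0.999). LOXL2 was higher in P114 (12.50 and 11.53) and CMT-U309 (11.63 and 12.34) than in CMT-U27 (10.15 and 11). Without a trend of the variance on intensity the LOXL2 calls were lost (adjusted p = 0.085 and 0.0813). LOXL4 ran the other way, with P114 at 6.22 and 6.92, CMT-U27 at 7.85 and 7.69 and CMT-U309 at 8.11 and 8.04.

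Fibrillins and fibulins, which organise elastic and microfibrillar matrix, held no common order. FBN1, the main fibrillin of microfibrils, stood at 11.64 and 12.17 in P114, 7.44 and 7.17 in CMT-U27 and 11.75 and 11.79 in CMT-U309. FBLN2 was highest in CMT-U309, at 13.02 and 12.83, against 6.30 and 6.16 in P114 and 5.63 and 5.14 in CMT-U27 (3 of 4 channels), a 103-fold and a 186-fold difference (adjusted p = 4.73e-09 and 9.59e-10). FBLN5, a fibulin needed for elastic fibres, and FBLN7 were lowest in P114. FBLN5 stood at 6.59 and 6.47 in P114, 8.10 and 8.29 in CMT-U27 and 8.23 and 8.34 in CMT-U309, and its second probe differed by 1.95- and 1.90-fold, short of the threshold. FBN2, named after its values were seen, had probes that disagreed. Its brighter probe differed in no contrast, at mean levels of 7.90, 7.69 and 8.31, and the other was measured in CMT-U309 alone, at 11.92 and 12.21, at least 236-fold above P114 and at least 320-fold above CMT-U27.

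SPARC, a collagen-binding matricellular protein, stood at 15.57 and 15.89 in P114, 10.56 and 10.84 in CMT-U27 and 16.62 and 16.56 in CMT-U309. It was 32.7-fold higher in P114 and 59.0-fold higher in CMT-U309 than in CMT-U27, and all 5 of its probes gave these calls. P114 minus CMT-U309 was -0.85 for SPARC on the log2 scale, under the fold threshold. It was -1.45 with quantile normalization, -1.50 with loess and Aquantile and -1.34 with normexp, and was then called. THBS1, which activates latent TGF-beta, stood at 15.89 and 15.37 in P114, 13.34 and 13.67 in CMT-U27 and 15.07 and 15.67 in CMT-U309, so P114 and CMT-U309 overlapped. THBS3 was higher in P114 and in CMT-U309 than in CMT-U27, where 2 of 4 channels measured it, by 7.12 and 8.63 on the log2 scale and by 3.77 and 5.43 with normexp. THBS2 and POSTN, the latter a protein of activated stroma, were measured in all channels of CMT-U309 only and in no channel of P114. By the bound after loess and Aquantile, THBS2 was at least 3.82-fold and POSTN at least 3.49-fold higher in CMT-U309 than in P114. With normexp these calls were lost, with P114 minus CMT-U309 at -0.70 for THBS2 and -0.63 for POSTN on the log2 scale. CMT-U309 minus CMT-U27 was then 0.67 and 0.44, also under the fold threshold. The POSTN probes disagreed between P114 and CMT-U27, with the brightest lower in P114 by 1.18 on the log2 scale and the median over the probes higher by 0.89 (adjusted p = 0.0942), and neither line had it well above background in all channels. TNC, the tenascin of remodelling tissue, was called in no contrast at its brightest probe. Its other probe, measured in 0 of 4 CMT-U27 and 3 of 4 CMT-U309 channels, was higher in CMT-U309 by 1.39 on the log2 scale (adjusted p = 0.0294). The brightest probe gave 0.99 (adjusted p = 0.0501) in that contrast, and TNC was called with 75th percentile scaling (1.21, adjusted p = 0.0199) and at the median over its probes (1.19, adjusted p = 0.0179). SPARCL1, a relative of SPARC, was higher in CMT-U309 than in CMT-U27 by 2.19-fold at its brightest probe, and this call was lost with normexp (0.47 on the log2 scale), without replicate 2 (0.69) and at the median over its probes (0.16, adjusted p = 0.813).

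The proteoglycans separated CMT-U27 from the other lines at each of their 6 probes. DCN, the fibril-binding decorin, stood at 12.34 and 11.74 in P114, 2.77 and 2.05 in CMT-U27 (1 of 4 channels) and 14.55 and 14.18 in CMT-U309. Its second probe was not well above background in CMT-U27 and was at least 52.8-fold higher in P114 and at least 320-fold higher in CMT-U309. LUM, the related lumican, stood at 9.35 and 8.91 in P114, 5.97 and 4.98 in CMT-U27 (3 of 4) and 13.87 and 14.03 in CMT-U309, and was 28.2-fold higher in CMT-U309 than in P114 (adjusted p = 2.72e-07). BGN, the related biglycan, overlapped between P114 (10.67 and 10.01) and CMT-U309 (9.99 and 10.90), and CMT-U27 lay at 4.55 and 4.58 (2 of 4). VCAN, the large proteoglycan versican, was highest in P114, at 10.55 in monoculture and a mean of 10.32 over both samples, with 9.12 and 9.37 in CMT-U309 and 4.18 and 4.40 in CMT-U27 (2 of 4). P114 over CMT-U309 was 2.11-fold (adjusted p = 0.00303), and 0.98 on the log2 scale, under the fold threshold, with quantile normalization or with loess and Aquantile, and 0.71 with normexp.

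The size of the differences against a line near background depended on the background correction. With normexp and an offset of 50, P114 minus CMT-U27 was 6.95 for COL1A1, 4.88 for DCN and 2.90 for COL3A1 on the log2 scale. CMT-U309 minus CMT-U27 was 8.83 for COL1A1 and 5.47 for FBLN2. All of these were still called. The calls of THBS2 and POSTN in CMT-U309 over either other line were lost. The 8 member probes below CMT-U27 in P114 became 0, among them those of FBLN5 and LOXL4 (-0.85 and -0.56).

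The genes that fold and process collagen, which are not members, were counted beside it. Of the 28 genes listed, 20 had a probe and 19 were tested. At the brightest probe, 11 were higher and 1 lower in P114 than in CMT-U27, and 14 were higher and 0 lower in CMT-U309 than in CMT-U27. The prolyl hydroxylase subunits P4HA1, P4HA2 and P4HA3 were higher in both lines, P4HA3 by 6 in P114 and 4.11 in CMT-U309 on the log2 scale, with 1 of 4 channels measured in CMT-U27. PCOLCE, the enhancer of procollagen C-proteinase, stood at 11.47 and 11.31 in P114, 4.97 and 4.90 in CMT-U27 (3 of 4 channels) and 11.60 and 12.01 in CMT-U309. The collagen chaperone SERPINH1 was 2.53 and 2.52 higher, and the C-proteinase BMP1 3.29 and 3.45 higher, in the same contrasts on the log2 scale. PPIB, CRTAP and P4HB, which work in the endoplasmic reticulum, were not called in any contrast, and PPIB lay between 15.59 and 16.09 in all 6 samples. Of 15 receptors listed for collagen and other matrix proteins, 11 had a probe. Of these, 6 were higher and 2 lower in P114 than in CMT-U27, and 5 were higher and 3 lower in CMT-U309 than in CMT-U27. DDR2, a receptor for fibrillar collagen, was well above background in 0 of 4 CMT-U27 channels and stood at 8.77 and 8.47 in P114, while DDR1, its relative of epithelial cells, was highest in CMT-U27 (13.71 and 13.89). The integrin chain ITGA11, a collagen receptor of fibroblasts, was 4.71 higher in P114 and 6.62 higher in CMT-U309.

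The epithelial and mesenchymal markers differed between the same lines. Of 8 epithelial markers with a probe, 7 were lower in P114 than in CMT-U27 and 7 lower in CMT-U309. EPCAM stood at 15.58 and 15.27 in CMT-U27, 9.32 and 9.04 in P114 and 7.08 and 6.28 in CMT-U309, and CDH1 was measured in all channels of CMT-U27 alone. KRT14, a basal keratin, was the exception, higher in CMT-U309 than in CMT-U27 by 1.53. Of 10 mesenchymal and fibroblast markers with a probe, 7 were higher and 0 lower in P114 and in CMT-U309 than in CMT-U27, among them VIM (16.74 and 16.99 in P114, 10.13 and 10.26 in CMT-U27, 16.23 in both CMT-U309 samples), CDH2, ZEB1 and SNAI2. FAP, a marker of activated fibroblasts, was high in CMT-U309 alone, 3.78 above CMT-U27. The summed signal of the epithelial markers was 4990 to 5830 in P114, 112000 to 128000 in CMT-U27 and 5780 to 7310 in CMT-U309, and that of the mesenchymal markers 195000 to 234000, 4390 to 4520 and 143000 to 157000. In P114 and CMT-U309 the brightest epithelial marker was KRT14, the exception, with mean levels of 11.86 and 12.58. It therefore weighed most in the epithelial sums of these lines. The part of the epithelial and mesenchymal markers in the matrix differences was not tested. All 5 endothelial markers had a probe and 1 was called between P114 and CMT-U27.

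**Figure D3:**
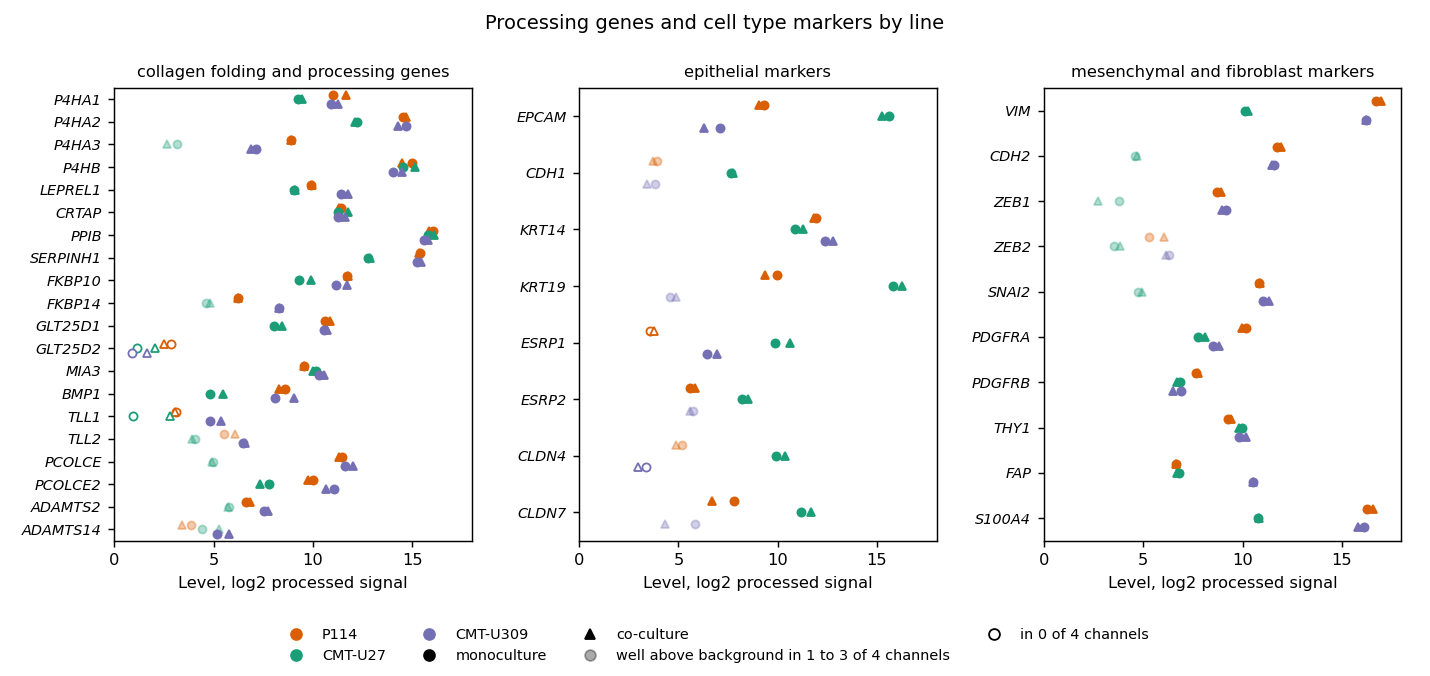
Level (log2 processed signal) of collagen folding and processing genes, epithelial markers and mesenchymal markers in the 6 RNA samples, with symbols as in the plot of matrix levels. PCOLCE and SERPINH1 lie to the left in CMT-U27, PPIB lies between 15.59 and 16.09 in every sample, and the epithelial markers run the opposite way with EPCAM at 15.58 and 15.27 in CMT-U27.

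No matrix gene passed the adjusted test for co-culture with MDSCs over all 3 lines. Ratios are log2 of co-culture over monoculture on an array, and the mean over a line's arrays entered the test as 1 value. No probe on the array passed an adjusted p of 0.05 in limma, with 4048 probes, 13 of them members, under 0.05 unadjusted, and the lowest adjusted p among members was 0.498. By the study's criteria, a fold over 2 with an unadjusted p under 0.05, 2 of 112 member probes were higher and 1 was lower, 1.79% and 0.893%, against 1.03% and 0.192% of all probes. The median ratio was 0.10 over the member probes and 0.01 over all probes. The ratios of P114 stood apart, since its dye-swapped arrays correlated at -0.39 over all probes and at -0.31 over the member probes once both were turned to co-culture over monoculture. In CMT-U27 the arrays correlated at 0.26 and 0.35, and in CMT-U309 at -0.09 and 0.15, over all and over member probes. The arrays of P114 thus did not settle the direction of its ratios, nor did those of CMT-U309 run together over all probes. Whether the dyes of one of the P114 arrays are labelled the wrong way round was not tested. With the ratios of P114 array 1 turned, 5 of 112 member probes were higher and 1 lower past these thresholds and 9 passed the adjusted test. Of all 40706 probes, 1927, 534 and 3335 did, shares near those of the members. With those of array 2 turned, 0, 0 and 0 member probes and 28, 26 and 0 of all probes did. The mean level of a line takes in all 4 channels, whichever RNA each held.

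**Figure D4:**
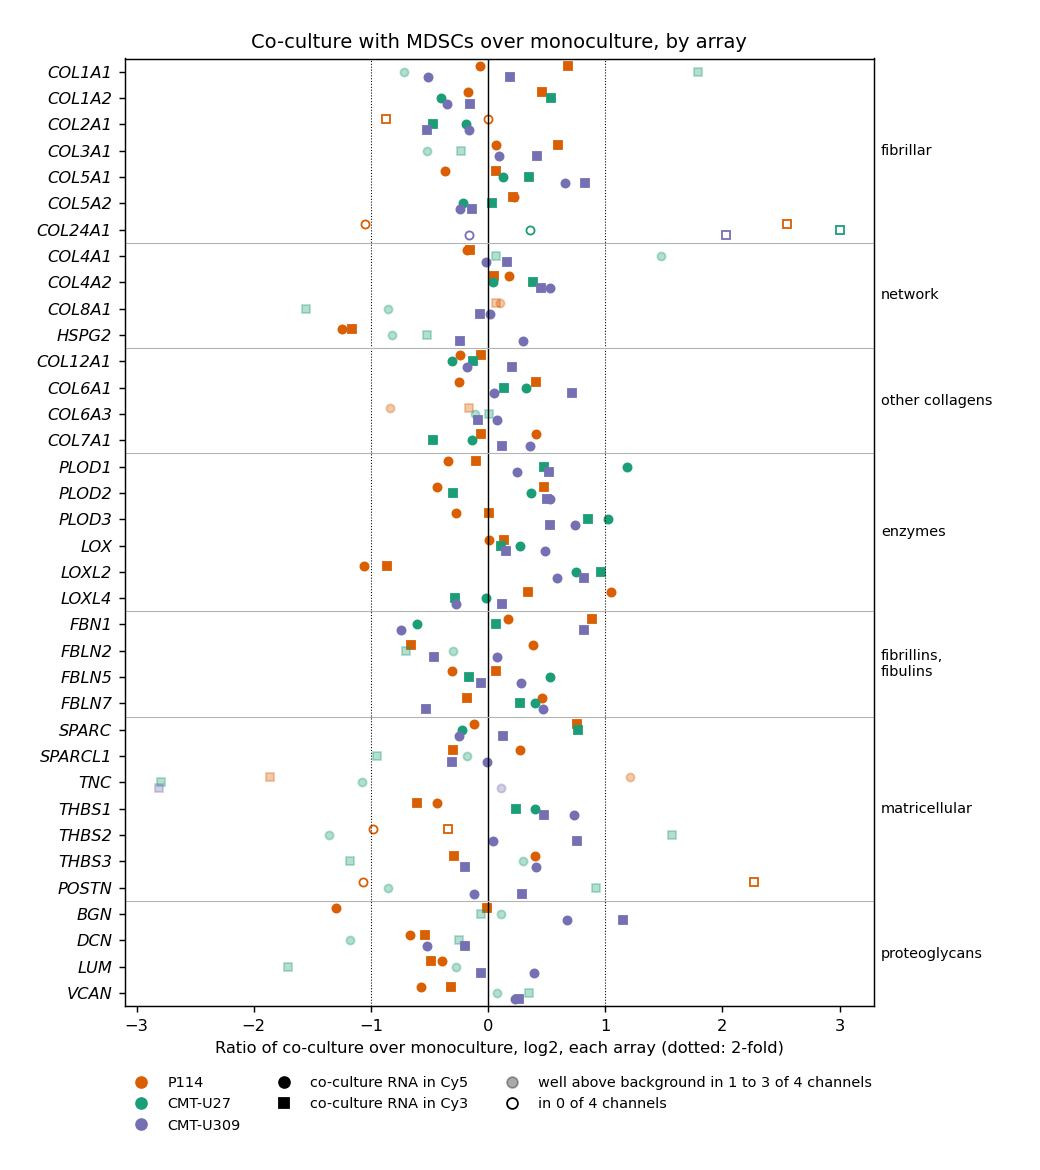
Ratio of co-culture over monoculture (log2) on each of the 6 arrays for the named genes, with circles where the co-culture RNA was in Cy5 and squares where it was in Cy3, filled, pale or open as in the plot of levels. Most filled symbols lie within 1 of 0, LOXL2 parts P114 (-1.06 and -0.86) from CMT-U27 (0.75 and 0.96) and CMT-U309 (0.59 and 0.82), and the widest symbols, those of COL24A1 and TNC, are open or pale.

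The 3 probes past the thresholds belonged to COL24A1, SPARCL1 and TNC, which the study also names in a list chosen on these samples, so their direction here is not independent of it. None of the 3 was well measured. COL24A1, a minor fibrillar chain, had a mean ratio of 1.12 ± 0.39 (SE, adjusted p = 0.498) and was well above background in 0 of 12 channels. Its ratios were -1.05 and 2.55 in P114, 0.36 and 3 in CMT-U27 and -0.16 and 2.03 in CMT-U309, so the value rested on the arrays numbered 2. Without P114 its mean was 1.31 ± 0.39 (adjusted p = 0.0407). The SPARCL1 probe past the thresholds (mean 1.22 ± 0.44, and 1.61 ± 0.39 without P114, adjusted p = 0.0203) was also never well above background, and the brightest SPARCL1 probe had a mean of -0.25 ± 0.17 with 4 of 4, 3 of 4 and 4 of 4 channels measured in P114, CMT-U27 and CMT-U309. TNC had a mean of -1.21 ± 0.30 (adjusted p = 0.498), with 2, 2 and 3 of 4 channels measured. Its ratios were 1.21 and -1.86 in P114, -1.08 and -2.79 in CMT-U27 and 0.11 and -2.81 in CMT-U309, and without the arrays numbered 2 the mean was 0.08. At the median over the TNC probes the mean was -0.51 ± 0.29 (limma, adjusted p = 0.532).

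Within single lines and at the brightest probe, no gene measured in all 4 channels had a mean ratio more than 2-fold higher. At that probe 1 had a ratio more than 2-fold lower, HSPG2 in P114, with -1.25 and -1.16 on its arrays. With either P114 array turned its mean there was 0.05 or -0.05. Other probes of COL1A1 and COL6A3 did go past 2-fold in a line, as given further on. Of the 36 genes so measured in P114 the mean ratios ranged from -1.21 to 0.69, of the 26 in CMT-U27 from -0.37 to 0.93, and of the 42 in CMT-U309 from -0.36 to 0.91. At the brightest probe, 2 of the 58 genes were higher and 2 lower on all 6 arrays (3.45% each), against 2.56% and 1.72% of all probes. Measured in all 12 channels among them were COL4A2, with ratios of 0.18 and 0.05 in P114, 0.04 and 0.38 in CMT-U27 and 0.53 and 0.45 in CMT-U309, and LOX, with a mean of 0.20 ± 0.11. Neither passed the test over the 3 lines, and without P114 COL4A2 passed it (0.35 ± 0.11, adjusted p = 0.0439). DCN was lower on 6 of 6 arrays, by -0.67 and -0.54 in P114, -1.18 and -0.25 in CMT-U27 (1 of 4 channels) and -0.52 and -0.20 in CMT-U309 (mean -0.56 ± 0.12, adjusted p = 0.498), but its second probe had a mean of -0.12 ± 0.20. Of the 3 COL5A1 probes, those other than the brightest were higher on 6 of 6 arrays, with means of 0.72 ± 0.13 and 0.53 ± 0.13, and the brightest was lower on 1 P114 array (mean 0.28 ± 0.16).

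Several genes had ratios of one sign on both P114 arrays and of the opposite sign on both arrays of another line. The share of all probes with such ratios is not given here, so whether the members exceed it is not known. LOXL2, which oxidises lysines in collagen, had ratios of -1.06 and -0.86 in P114, 0.75 and 0.96 in CMT-U27 and 0.59 and 0.82 in CMT-U309. THBS1 had ratios of -0.44 and -0.61 in P114, 0.40 and 0.24 in CMT-U27 and 0.73 and 0.48 in CMT-U309. BGN had ratios of -1.30 and -0.01 in P114 and 0.67 and 1.15 in CMT-U309. PLOD1 had ratios of -0.34 and -0.10 in P114, 1.19 and 0.48 in CMT-U27 and 0.25 and 0.52 in CMT-U309. The differences between lines in these ratios were not tested, since a line has 1 pair of RNAs.

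The probes along type I collagen gave different ratios within one gene. At the 3 upstream COL1A1 probes, which start at bases 558, 2326 and 3366, both arrays of P114 were lower (-1.09 and -0.62, -1.46 and -1.46, -1.70 and -0.87) and both arrays of CMT-U309 higher (1.41 and 1.12, 1.69 and 1.24, 1.37 and 1.48). At the brightest probe, which starts at base 4636 of the same transcript, the ratios were -0.07 and 0.68 in P114 and -0.51 and 0.19 in CMT-U309, so the sign differed between the arrays. In CMT-U27 the upstream probes were measured in 2, 4 and 1 of 4 channels and their ratios ranged from -1.42 to 0.48. For COL1A2 the ratios lay between -0.43 and 0.86 at all 6 probes. The 3 helix probes of COL1A2 shown above and the probe at base 4375 were higher on both CMT-U309 arrays (0.17 to 0.72), while the probes at bases 4193 and 4199 were lower on both (-0.35 to -0.15). The levels of the lines kept their order across the COL1A1 probes.

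**Figure D5:**
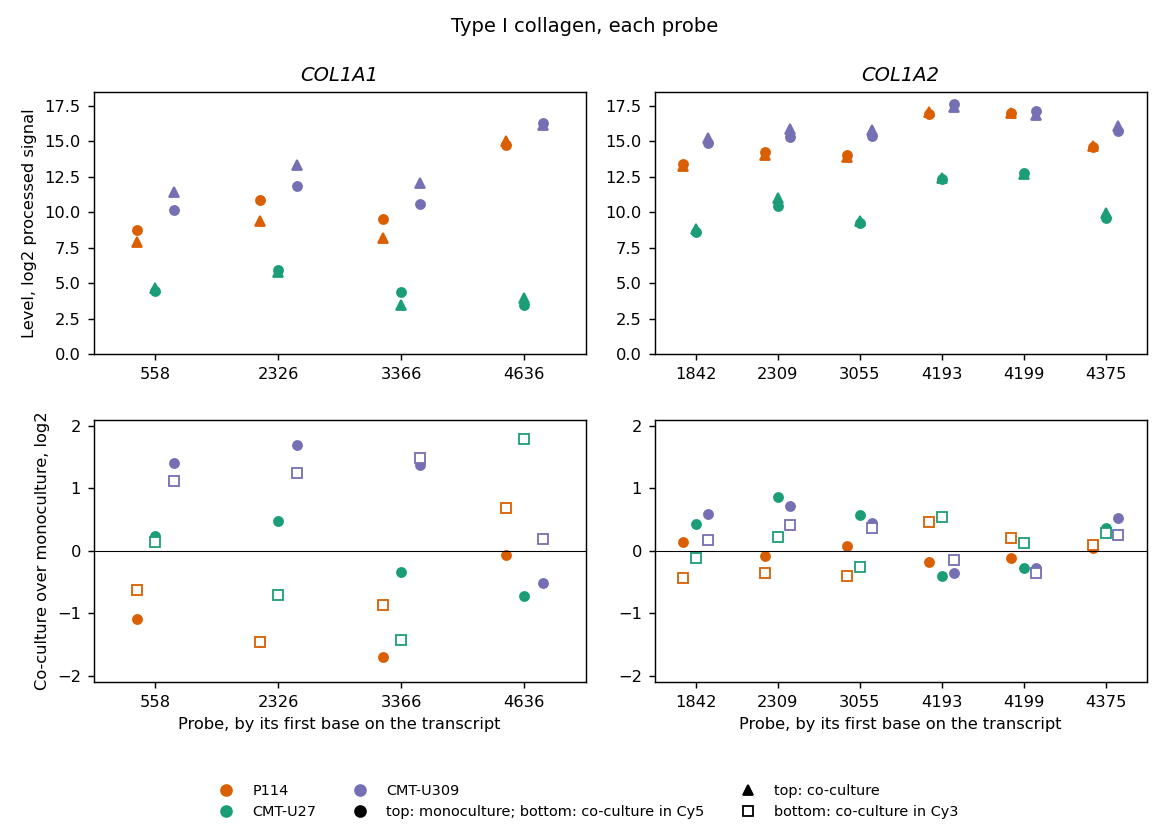
Level (log2 processed signal, upper panels) and ratio of co-culture over monoculture (log2, lower panels) at each COL1A1 and COL1A2 probe, placed by the base of the transcript at which it starts. For COL1A1 the P114 ratios lie between -1.70 and -0.62 and the CMT-U309 ratios between 1.12 and 1.69 at the 3 upstream probes, and the lines are not parted at base 4636.

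Without P114, 5 of 112 member probes were higher past the thresholds of the methods, beside 2104 of all 40726 probes. At an adjusted p under 0.05, 17 member probes were higher and 2 lower. That is 17% of the 112 member probes, beside 15.3% of all probes, so the share of members was near that of the array. Among those measured in all 4 channels of CMT-U27 and CMT-U309 were LOXL2 (mean of the 2 lines 0.78 ± 0.09, adjusted p = 0.000666), PLOD3 (0.78 ± 0.11, adjusted p = 0.00119), PLOD1 (0.61 ± 0.13), THBS1 (0.46 ± 0.10), LOXL3 (0.70 ± 0.13), COL4A2, 2 COL1A2 probes, 1 COL5A2 probe and all 3 COL5A1 probes (0.49 to 0.84). PLOD3, a lysyl hydroxylase that also adds sugars to collagen, had ratios of 1.02 and 0.85 in CMT-U27 and 0.74 and 0.53 in CMT-U309, and of -0.27 and 0.01 in P114. LOXL3 had ratios of 0.89 and 0.31 in CMT-U27 and 1.45 and 0.14 in CMT-U309, whose arrays correlated at -0.09 over all probes. The highest ratio of a measured line in this set was that of a COL6A3 probe in CMT-U309 (2.05 and 1.46), which was in no CMT-U27 channel well above background, while the other 4 COL6A3 probes had ratios between -0.09 and 0.68 in CMT-U309. DCN (-0.54 ± 0.13) and TNC (-1.65 ± 0.25), neither measured in all channels of CMT-U27, were the lower ones.

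Of 14 markers listed for the co-cultured myeloid cells, 11 had a probe, and 0 passed the thresholds of the methods for co-culture over monoculture in limma, with 0 at an unadjusted p under 0.05. ITGAM and LYZ, which mark myeloid cells, were well above background in 0 of 12 channels, and PTPRC, which marks leukocytes, in 3 of 4 channels of CMT-U309 (4.30 and 4.03) and in none of the others. CD68 lay between 10 and 10.4 in all 6 samples, and MPO stood at 9.51 and 9.72 in CMT-U309, both measured in all 4 channels there. The summed signal of the myeloid markers was 1590 in both samples of P114, 7850 and 13600 in CMT-U27 and 2210 and 2360 in CMT-U309, and in CMT-U27 it was led by S100A8 (12.64 and 13.49), which epithelial cells can also express. Of the 19 tested folding and processing genes, 0 passed the thresholds for co-culture in limma, with 3 at an unadjusted p under 0.05.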

How the data were processed

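RNA of 3 canine tumor lines, each in monoculture and in co-culture, was hybridised on 6 two-colour Agilent canine arrays. The authors scanned them and extracted spots with Feature Extraction (10.10.1.1 in the file headers, 10.7.3.1 in the submitters' processing notes), and the deposited intensity values are background-subtracted, dye-normalized processed signals of each channel. The deposited log10 ratio table held the same arrays turned to co-culture over monoculture and served as an alternative. Probe positions on canFam2 were taken as deposited per the file headers and columns.

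Control and outlier spots were dropped, spots of a probe were averaged, the medians of all channels were made equal, and a probe had to exceed an intensity of 10 on some array, which left 40706. Values derived from the deposited intensities were turned to log2. Line contrasts were fitted with limma 3.58.1 (R 4.3.3) on 6 RNA samples with the culture condition as a covariate, which left 2 residual degrees of freedom, moderated over probes. The co-culture ratio was tested with limma against 0 over 3 line means. A fold bound for a probe below background in all 4 channels of a line was taken after loess and Aquantile. The fits were tested on simulated data with known differences. The number of arrays limits the precision, and 0 unassigned columns were used.

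Named genes were the members in the study's own list, those past the thresholds of the methods in co-culture, those of the same sign on all 6 arrays where all 12 channels measured them, up to 8 per direction and line pair with the largest called difference, and the common matrix genes. The members, lists and rule were chosen with earlier results of these data known. Of the 58 symbols, 56 were found in the RefSeq gene table. Alternatives covered background correction, normalization, scaling, filters, variance model, outlier spots, replicates and left-out arrays or lines, the methods' t-test and, added after seeing the data, either P114 array turned.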

Additional observations from a re-analysis of the deposited data

Results flagged for a closer look

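The results here were picked among the named genes as defined above. In each, both arrays of 1 line had ratios of co-culture over monoculture of one sign, and both arrays of another line the opposite. Outside that set, COL9A2, COL11A2 and FBN2 also had such ratios, with differences between lines of 1 for COL9A2, 0.88 and 0.78 for COL11A2 and 0.27 for FBN2. No share over all probes is given. A difference between lines is given as the difference of their mean log2 ratios and was not tested, since a line has 1 pair of RNAs and P114's dye-swapped arrays correlated at -0.39.

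LOXL2 was higher in CMT-U27 than in P114 by 1.82 and in CMT-U309 than in P114 by 1.67. BGN was higher in CMT-U309 than in P114 by 1.57. THBS1 was higher than in P114 by 1.12 in CMT-U309 and by 0.84 in CMT-U27. PLOD1 was higher than in P114 by 1.06 in CMT-U27 and by 0.60 in CMT-U309. VCAN was higher in CMT-U309 than in P114 by 0.69. In the other direction, LOXL4 was higher in P114 than in CMT-U27 by 0.85, and COL5A2 was higher in P114 than in CMT-U309 by 0.40. COL7A1 was higher in CMT-U309 than in CMT-U27 by 0.55.

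Whether the dyes of a P114 array are labelled the wrong way round was not tested. With the ratios of P114 array 1 or of array 2 turned, LOXL2 exceeded P114 by 0.76 or 0.96 in CMT-U27 and by 0.61 or 0.81 in CMT-U309, BGN by 0.26 or 1.56 in CMT-U309, and THBS1 by 0.68 or 0.52 in CMT-U309 and 0.41 or 0.24 in CMT-U27. PLOD1 exceeded P114 by 0.72 or 0.96 in CMT-U27 and 0.26 or 0.50 in CMT-U309, and VCAN by 0.12 or 0.36 in CMT-U309. CMT-U27 minus P114 was then 0.20 or -0.50 for LOXL4, and CMT-U309 minus P114 was -0.18 or -0.20 for COL5A2. For LOXL2 and THBS1 the ratios of both P114 arrays were alike, so turning either one nearly cancelled them by arithmetic. The P114 mean was then 0.10 or -0.10 for LOXL2 and -0.08 or 0.08 for THBS1. What remained was mostly the other line's own ratio, so it is no check on the difference between lines.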

How the results depend on the processing

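The counts of member probes in the line contrasts that were not small kept their size under every alternative (within 1.5 times), and counts under 10 did not. The median differences of the members did move, to 0.48, 1.75 and -0.47 with normexp, loess and Aquantile (P114 minus CMT-U27, CMT-U309 minus CMT-U27, P114 minus CMT-U309). With normexp, loess and Aquantile, the 8 probes lower in P114 than in CMT-U27 became 0, the 3 higher in P114 than in CMT-U309 became 1, and the 2 lower in CMT-U309 than in CMT-U27 became 0. The last count was also 0 among probes well above background in a whole line, and 1 to 2 without either replicate. For POSTN the median over its probes gave 0.89 for P114 minus CMT-U27. Scaling to the 75th percentile moved the median of all probes to 0.31, 0.08 and 0.17 in P114 minus CMT-U27, P114 minus CMT-U309 and CMT-U309 minus CMT-U27, and the calls over all probes in the first from 4728 higher and 5121 lower to 6054 and 4338.

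For co-culture, the 2 member probes higher past the thresholds became 0 with normexp and loess, 0 among probes well above background and 0 in the methods' t-test, and 1 over 6 arrays without a replicate block. With P114 array 1 turned, an alternative chosen after seeing the data, 5 were higher and 9 passed an adjusted p under 0.05. Of all 40706 probes, 1927 were then higher and 3335 passed. With array 2 turned 0 member probes were higher and 0 lower. The 1 lower probe became 0 with normexp and 0 in the methods' t-test, and the 1 lower gene became 0 at the median over its probes. Left-out lines or replicates gave 0 to 11 higher, 0 to 3 lower and 0 to 19 at an adjusted p under 0.05, with 7 without replicate 1. Of the 40726 to 40831 probes tested, 121 to 3270 were higher and 94 to 2334 lower in these settings. At an adjusted p under 0.05 there were 0 to 6244 of them, with 2925 without replicate 1. Without either replicate the ratio of COL24A1 ran from -0.28 to 2.53 and that of TNC from -2.49 to 0.08. The cause was not tested. With the replicate block, which marks the dye orientation and does not pair the samples, 2 member probes were higher and 1 lower, and line contrasts had 63, 45 and 79 calls in the directions led with (P114 over CMT-U27, P114 below CMT-U309, CMT-U309 over CMT-U27). The correlations of same-numbered arrays ran from -0.22 to 0.61. Ratios of probes near background were limited by signal.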
